A study of Mus musculus with 4 samples.

Results

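The maternal decidua marker genes are 10 genes of the uterine stroma, chosen by name: Hoxa10, Hoxa11, Pgr, Hand2, Col1a1, Col1a2, Col3a1, Dcn, Lum and Des. They were read here, of 47885 rows in the deposited table, as a per-embryo check of uterine tissue carried over at dissection. All 10 were found in the table, and 9 of them had at least 1 count in some embryo. The table holds read counts per gene for 4 single mouse embryos at embryonic day 5.5, on a C57BL/6 background. The study asked what loss of Mettl14, a subunit of the RNA m6A writer, does in the early embryo. The 2 embryos labelled Mettl14+/+ are called WT 1 and WT 2, and the 2 labelled Mettl14-/- are called KO 1 and KO 2. Genotype was read only afterwards, from a Mettl14 qPCR of leftover amplified cDNA, so a WT embryo was one that expressed Mettl14, which need not separate homozygous from heterozygous carriers. Neither the deleted part of the gene nor the litters or dissection days are stated.

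The decidua is the uterine stroma as it is remodelled around an implanting embryo. Progesterone, acting through its receptor, turns stromal fibroblasts into large secretory decidual cells. Hoxa10 and Hoxa11 give the uterine tract its positional identity, Hand2 mediates progesterone action in the stroma, and the fibroblasts lay down fibrillar collagen bound by small proteoglycans. An egg cylinder is dissected out of this tissue, and its own epiblast, extraembryonic ectoderm and visceral endoderm are not known for strong expression of these genes, although that was not measured here in separated tissues.

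Hoxa10 is the member with counts in both WT embryos and 0 in both KO embryos at the largest count, and Pgr is the uterine regulator that was counted in all 4. The 250 bases before the RefSeq starts of these genes (GRCm38.p6, the release that mm10 is taken from) are therefore shown. RefSeq gives Hoxa10 an upstream and a downstream start. The windows lie at chr6:52240855-52241104 (minus strand), chr6:52234940-52235189 (minus strand) and chr9:8899583-8899832 (plus strand), and none of the 3 overlaps an annotated exon of its gene. Capitals mark the TATA box (TATAAA), the CCAAT box (CCAAT), the E-box bound by bHLH factors such as Hand2 (CANNTG) and the core of the steroid receptor element (AGAACA), each searched on both strands with overlaps allowed.
Hoxa10 upstream start: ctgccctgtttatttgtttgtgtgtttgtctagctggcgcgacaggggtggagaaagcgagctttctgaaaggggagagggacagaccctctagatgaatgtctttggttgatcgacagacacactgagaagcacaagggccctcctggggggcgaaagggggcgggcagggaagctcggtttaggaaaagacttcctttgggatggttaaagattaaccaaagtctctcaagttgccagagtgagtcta
Hoxa10 downstream start: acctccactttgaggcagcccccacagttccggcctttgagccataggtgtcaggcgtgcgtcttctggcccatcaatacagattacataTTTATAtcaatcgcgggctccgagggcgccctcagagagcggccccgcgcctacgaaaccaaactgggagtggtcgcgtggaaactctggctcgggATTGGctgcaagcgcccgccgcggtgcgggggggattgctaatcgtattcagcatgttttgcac
Pgr: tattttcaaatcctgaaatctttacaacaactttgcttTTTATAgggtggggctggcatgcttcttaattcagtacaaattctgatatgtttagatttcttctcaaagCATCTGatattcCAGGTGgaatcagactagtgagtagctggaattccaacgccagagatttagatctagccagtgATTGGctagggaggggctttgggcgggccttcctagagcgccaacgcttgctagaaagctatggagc
The upstream Hoxa10 window held none of these motifs, and the downstream window held 1 TATA box and 1 CCAAT box. The Pgr window held 1 TATA box, 1 CCAAT box and 2 E-boxes. Of 32536 such windows, 12.3% held the TATA box, 33.8% the CCAAT box, 66.2% the E-box and 16% the steroid receptor core. A match is a description of letters, and binding was not measured. Windows were found for 7 of the 10 genes; Dcn, Lum and Col1a1 had none.

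The libraries held between 16108062 and 28698541 counts, and 1 count was worth between 0.0359 CPM (counts scaled to a TMM-adjusted library of 1e+06) in KO 2 and 0.059 CPM in WT 1. Both KO libraries were deeper than WT 1 and WT 2, so a gene missing in KO was looked for at no lower depth. Mettl14 stood at 34 and 31.6 CPM in WT and at 4.63 and 8.04 CPM in KO, which follows the classing and is not independent evidence of it. The egg cylinder tissues were present in every embryo. The summed level of 7 epiblast markers ran from 1771 to 2765 CPM and that of 6 extraembryonic ectoderm markers from 596 to 984 CPM, against at most 27.7 CPM for all 10 decidua markers together. The epiblast genes Utf1, Dnmt3b and Pou3f1 each had at least 176 CPM in every embryo, and the extraembryonic ectoderm genes Eomes, Bmp4 and Elf5 at least 102.

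The decidua markers were scarce in all 4 embryos and scarcer in KO. Of the 10, Hoxa11, Hand2, Lum and Col3a1 had 10 counts or fewer over all embryos. The counts of the 10 genes summed to 328 in WT 1 and 519 in WT 2, but to 91 in KO 1 and 124 in KO 2. On the CPM scale the sums were 19.3 and 27.7 in WT and 4.3 and 4.45 in KO, or 23.5 ± 5.94 and 4.37 ± 0.108 (SD, n = 2 embryos per group). The WT mean was thus 5.38-fold the KO mean, and the lowest WT embryo was 4.35-fold the highest KO embryo. Exact (Clopper-Pearson) 95% intervals ran from 17.3 to 21.5 CPM in WT 1, from 25.4 to 30.2 in WT 2, from 3.46 to 5.27 in KO 1 and from 3.7 to 5.3 in KO 2. These intervals hold counting error alone, because reads from amplified cDNA need not be separate molecules. The WT embryos differed from each other by more than this counting error, and the KO embryos did not. In whole embryos, fewer cells of a type and less RNA per cell cannot be told apart.

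**Figure D1:**
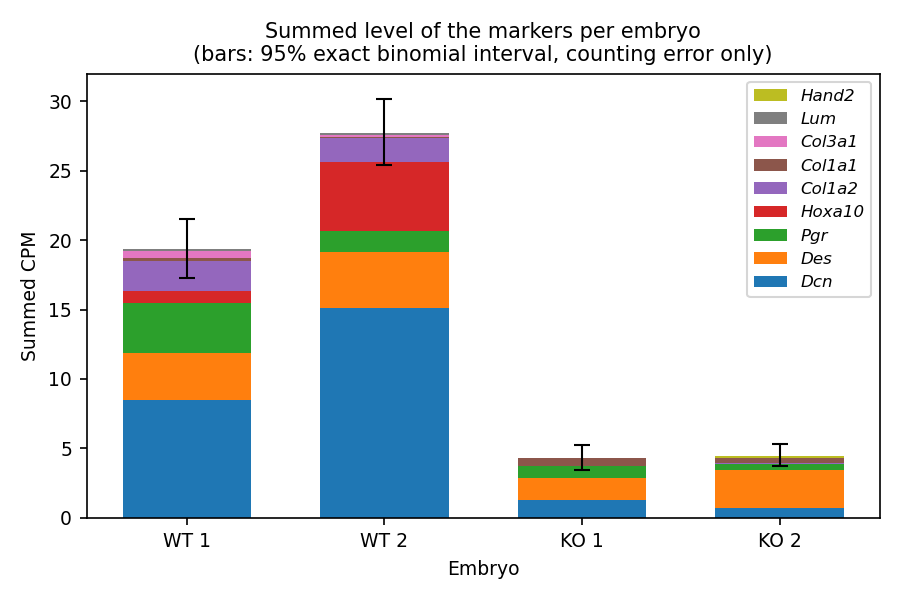
Stacked bars give the CPM of each marker in each embryo, and error bars give the exact 95% interval of the sum (counting error only). The WT sums are 19.3 and 27.7 CPM and the KO sums 4.3 and 4.45 CPM, with Dcn the largest block in both WT embryos and Des the largest in both KO embryos.

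Both KO embryos lay below both WT embryos for 7 of the 10 genes (Hoxa10, Pgr, Col1a2, Col3a1, Dcn, Lum and Des). Over the 25350 genes with at least 1 count, that held for 16.4%. The opposite held for 1 gene, Col1a1, against 14.9% of genes, and Hoxa11 and Hand2 did not separate the groups. These counts were the same with TMM, RLE and plain library totals as the scaling. No member passed the main test (edgeR quasi-likelihood, adjusted over 15563 genes), which called 0% of genes in either direction; 3 members, all with lower values in KO, had an unadjusted p under 0.05, beside 3.08% of genes with lower and 4.74% with higher values. DESeq2 called 2 members lower, Hoxa10 and Dcn, where it called 0.578% of genes lower and 0.964% higher, and limma-voom called 0 members and 0 genes. With no low-count filter, edgeR called Hoxa10, Dcn and Col1a2 lower (adjusted p 0.000422, 0.000258 and 0.047). That fit called 101 genes lower and 157 higher, of the 25350 with at least 1 count. Leaving out each embryo in turn left a single embryo in 1 group, so only effect sizes are given. The edgeR log2 fold change then ran from -9.80 to -7.28 for Hoxa10 and from -3.95 to -3.05 for Dcn. Only 5 members passed the filter on low counts (Hoxa10, Pgr, Col1a2, Dcn and Des). Hoxa10 and Col1a2 passed it through their WT counts alone and so had to differ, and no count or median over the 5 can serve as support.

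**Figure D2:**
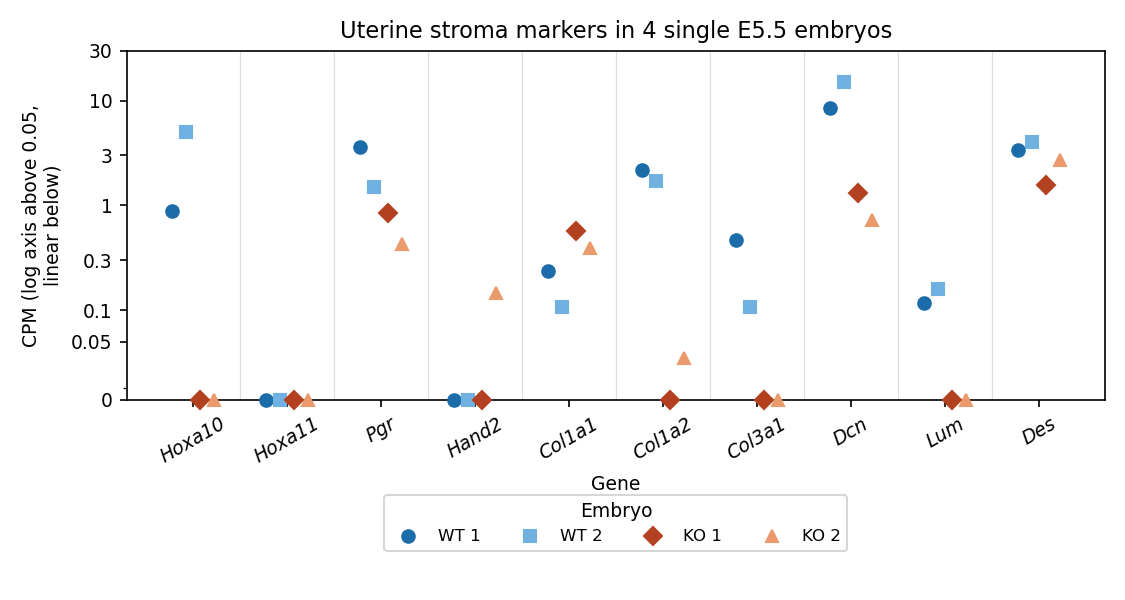
Points give the CPM of each gene (x axis) in each embryo, on a y axis that is logarithmic above 0.05 CPM and linear below it. Both KO embryos lie below both WT embryos for 7 genes, Col1a1 goes the other way, and Hoxa11 is at 0 in all 4 embryos.

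Among the uterine HOX factors, Hoxa10 (ENSMUSG00000000938, chromosome 6, 52231197 to 52240854, minus strand, mm10) is needed in the stroma for decidualization. It had 15 counts in WT 1, 93 in WT 2 and 0 in both KO embryos, or 0.884 and 4.97 CPM against 0. WT 2 was the highest and stood 5.62-fold above WT 1, so the embryos of this group differed widely. Taking 3 counts over the group as the most that 0 allows, the pooled WT level was at least 49.5-fold higher than KO by counting error alone. This bound and those given below for other genes leave out the spread between embryos. Reads from amplified cDNA need not be separate molecules, so the bounds are not strict limits. The edgeR log2 fold change (KO over WT) of -8.96 depends on the prior count and is no bound; its adjusted p was 0.303, and that of DESeq2 was 0.00237. Of the genes with a count, 2.26% were counted in both WT embryos and in neither KO embryo.

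Hoxa11, the neighbouring HOX gene (ENSMUSG00000038210, chromosome 6, 52242106 to 52245810), had 0 counts in all 4 embryos. At 3 counts per library, that allows up to 0.177 CPM in WT 1 and 0.108 CPM in KO 2. The antisense gene Hoxa11os, which shares 800 exon bases with it, was also at 0 throughout. Hoxa9, on the other side of Hoxa10, gave 10 and 9 counts in WT against 4 and 6 in KO, and Hoxa13, beyond Hoxa11, had 4 counts, all in KO 2. In WT 2, the counts within this stretch of the HoxA cluster thus lay mainly on Hoxa10 (93, against 9 on Hoxa9). In WT 1 the 2 genes were closer, at 15 and 10 counts.

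Pgr, the progesterone receptor gene (ENSMUSG00000031870, chromosome 9, 8899833 to 8968611), was counted in every embryo. It gave 61 and 28 counts in WT against 18 and 12 in KO, or 3.6 and 1.5 CPM against 0.85 and 0.431. The groups did not overlap, but the nearest embryos, WT 2 and KO 1, were 1.76-fold apart, less than the distance between WT 1 and WT 2. Its log2 fold change of -1.99 (SE 0.97) missed the threshold by edgeR (adjusted p 0.7) and by DESeq2 (adjusted p 0.679). WT 1 was the highest here, whereas WT 2 was the highest for Hoxa10.

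Hand2, a bHLH factor of the uterine stroma (ENSMUSG00000038193, chromosome 8, 57320983 to 57324633), had 4 counts, all in KO 2. It was at 0 in both WT embryos and in KO 1, and its antisense partner Hand2os1 was at 0 in all 4. No fold is given, since both groups were near the level of 3 counts.

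The fibrillar collagen genes did not all differ in 1 direction. Col1a1 and Col1a2 encode the chains that assemble into type I collagen, and Col3a1 encodes the single chain of type III. Col1a2 (ENSMUSG00000029661, chromosome 6, 4504814 to 4541544) gave 37 and 32 counts in WT against 0 and 1 in KO, or 2.18 and 1.71 CPM against 0 and 0.0359. The WT embryos were close to each other, and the ratio of pooled WT to KO CPM was 94.9, with a counting interval from 16.5 to 3801. The edgeR adjusted p was 0.362 and that of DESeq2 was 0.0552.

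Col1a1 (ENSMUSG00000001506, chromosome 11, 94936224 to 94953042) gave 4 and 2 counts in WT against 12 and 11 in KO, or 0.236 and 0.107 CPM against 0.567 and 0.395. It was the only one of the 10 with both KO embryos above both WT embryos. The KO mean was 2.8-fold the WT mean, and the ratio of pooled WT to KO CPM was 0.359 (counting interval 0.119 to 0.906). Col1a1 did not reach the filter on low counts; without the filter its edgeR adjusted p was 0.901. For every 100 Col1a2 counts there were 10.8 Col1a1 counts in WT 1 (interval 2.8 to 30.1) and 6.25 in WT 2 (0.726 to 24.5), while KO 1 had 12 Col1a1 counts with no Col1a2 count, and KO 2 had 11 with 1. The chain genes of type I collagen were therefore counted in opposite proportions in WT and KO; the difference in proportion was not tested.

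Col3a1 (ENSMUSG00000026043, chromosome 1, 45311538 to 45349706) gave 8 and 2 counts in WT against 0 in each KO embryo. The pooled WT level was at least 4.58-fold higher than the 3 counts allowed in KO. These are few counts for a transcript with 9816 exon bases, and the gene was not tested.

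The small leucine-rich proteoglycans bind collagen fibrils and set their spacing. Dcn, decorin (ENSMUSG00000019929, chromosome 10, 97479609 to 97518143), carried the most counts of the 10: 144 and 283 in WT against 28 and 20 in KO. On the CPM scale these were 8.49 and 15.1 against 1.32 and 0.718. The lowest WT embryo was 6.42-fold above the highest KO embryo, and the means were 11.8 ± 4.69 and 1.02 ± 0.427 CPM (SD, n = 2). Its log2 fold change of -3.54 (SE 0.65) missed the edgeR threshold (adjusted p 0.274) and passed that of DESeq2 (adjusted p 0.000151).

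Lum, lumican (ENSMUSG00000036446, chromosome 10, 97565128 to 97572703), lies close to Dcn and was nearly absent. It gave 2 and 3 counts in WT against 0 in each KO embryo, a pooled WT level at least 2.29-fold higher than the 3 counts allowed in KO. The other proteoglycan genes of this cluster, Kera and Epyc, were at 0 in all 4 embryos, so Dcn was the member of its cluster that gave the counts.

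Des, desmin (ENSMUSG00000026208, chromosome 1, 75360329 to 75368579), is the intermediate filament of muscle and of decidual cells. It gave 57 and 76 counts in WT against 33 and 76 in KO, or 3.36 and 4.06 CPM against 1.56 and 2.73. The groups did not overlap, but WT 1 stood only 1.23-fold above KO 2. Its log2 fold change of -0.79 (SE 0.70) missed the edgeR threshold (adjusted p 0.873). Gm15179, an antisense gene sharing 220 exon bases, had at most 3 counts in any embryo.

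Per length, the order of the 10 genes was led by Dcn. Averaged over the 4 embryos, Dcn stood at 1.1 CPM per kilobase of annotated exon, Des at 0.78, Hoxa10 at 0.448 and Pgr at 0.186. Col1a2, Col1a1, Lum, Hand2 and Col3a1 followed at 0.079, 0.0497, 0.0284, 0.0153 and 0.0147, and Hoxa11 was at 0. From Dcn down to Col1a2, each gap between neighbours was smaller than the SD, between the WT embryos, of at least 1 gene of the pair, and the genes below Col1a1 rested on at most 10 counts each. Even Dcn was a low gene on this scale: 32% of the genes tested had a lower level per kilobase than Dcn, 26.3% a lower level than Des, 17% a lower level than Hoxa10 and 1.32% a lower level than Col1a2. In KO the order was led by Des, at 0.571 CPM per kilobase, with Dcn at 0.175.

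The proportions among the genes also differed between embryos of 1 genotype. For every 100 Dcn counts, Hoxa10 had 10.4 counts in WT 1 (exact interval 5.68 to 17.8) and 32.9 in WT 2 (25.7 to 41.7). Pgr ran the other way, with 42.4 in WT 1 (30.9 to 57.5) and 9.89 in WT 2 (6.46 to 14.6). Col1a2 had 25.7 in WT 1 (17.4 to 37.1) and 11.3 in WT 2 (7.59 to 16.3). These 3 pairs of intervals do not overlap, whereas those of Des did, at 39.6 (28.6 to 54.1) and 26.9 (20.6 to 34.7). The WT embryos thus did not hold the markers in 1 fixed ratio within the counting error of reads. Reads from amplified cDNA need not be separate molecules, so these intervals can be too narrow.

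In KO 2, Des outnumbered Dcn, with 380 Des counts per 100 Dcn counts (230 to 657), and in KO 1 they were about level, at 118 (69.1 to 202). Pgr stood at 64.3 (33.5 to 120) and 60 (26.7 to 129), close to WT 1. The absence of Hoxa10 allowed at most 14.1 per 100 Dcn counts in KO 1 and 20.3 in KO 2, limits that include the value of WT 1 and exclude that of WT 2. With each KO embryo taken alone, at its own Dcn counts, the Hoxa10 proportion of WT 1 was therefore not distinguishable from 0. The KO embryos were not pooled for this comparison.

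**Figure D3:**
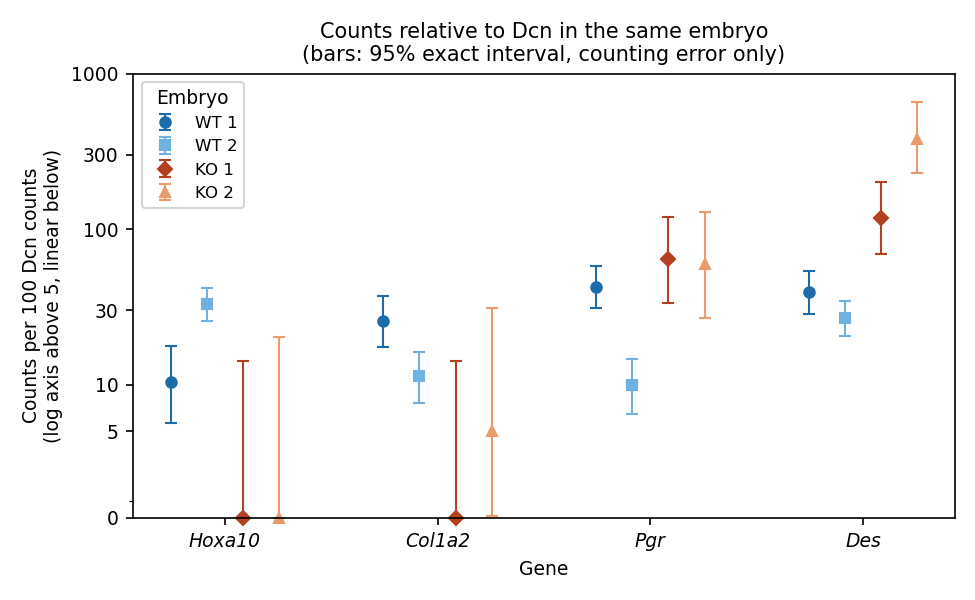
Points give the counts of Hoxa10, Col1a2, Pgr and Des per 100 Dcn counts in the same embryo, on a y axis that is logarithmic above 5 and linear below it, with exact 95% intervals (counting error only). Hoxa10 is higher in WT 2 (32.9) than in WT 1 (10.4), Pgr is higher in WT 1 (42.4) than in WT 2 (9.89), and Des exceeds Dcn in KO 2 (380).

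As a list, other genes linked to the uterine stroma did not show the WT excess. The tissue of origin of these counts, and of those in the other lists below, was not measured, so they need not be maternal. Of 22 genes linked to decidualization, 21 had a count. Both KO embryos lay above both WT embryos for 8 and below them for 1, where 14.9% and 16.4% of all counted genes did so. The 1 lower gene was Fkbp5, at 41.7 and 28.5 CPM in WT against 27.8 and 23.8 in KO. The summed level of the 22 genes was 295 and 302 CPM in WT against 364 and 357 in KO. It was carried by Gja1 (the gap junction protein connexin 43; 127 and 104 CPM in WT against 112 and 125 in KO) and by the secreted protease Htra1 (64.6 and 106 against 110 and 71.7), which overlapped between the groups. Cebpb, a bZIP factor that decidual cells need, stood at 21.5 and 20.7 CPM in WT against 36.1 and 55.6 in KO. Of the 14 genes that passed the filter on low counts, neither edgeR nor DESeq2 called any; Ptgs2 and Adamts1 passed it through their KO counts alone.

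Within that list, Ptgs2 and Esr1 were counted only in KO. Ptgs2, the inducible prostaglandin synthase, had 21 counts in KO 1 and 30 in KO 2, a pooled level at least 12.4-fold higher than the 3 counts allowed in WT. Esr1, the oestrogen receptor gene of uterine stroma and epithelium, had 5 and 35 counts in KO and 0 in both WT embryos. By counting error alone its pooled KO level was at least 9.7-fold higher. Of the genes with a count, 1.51% were counted in both KO embryos and in neither WT embryo. The steroid receptor genes Pgr and Esr1 therefore stood on opposite sides; Pgr was not called by edgeR, and Esr1 did not reach the filter on low counts. The decidual prolactin genes Prl8a2 and Prl3c1 had 8 and 16 counts in KO 1, 0 and 3 in WT 1, and 0 in WT 2 and KO 2; they have close copies among the prolactin genes, so their counts are uncertain.

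Other fibroblast and matrix genes (21 genes) summed to 57.5 and 70.3 CPM in WT against 50.8 and 64.4 in KO, and of the 18 with a count 1 gene, Col5a2, had both KO embryos below both WT embryos and 0 had them above, beside 16.4% and 14.9% of all counted genes. Fbln1, a basement membrane glycoprotein gene, carried most of this, at 33.7 and 49.9 CPM in WT against 31.4 and 44.1 in KO. Pdgfra, a growth factor receptor of fibroblasts and of primitive endoderm, stood at 2.12 and 11.6 CPM in WT against 5.71 and 2.69 in KO, and the gelatinase gene Mmp2 had 3.83 and 5.08 against 3.68 and 9.04. Of this list, Col6a1, Fmod and Igf1 were at 0 in all 4 embryos, while others such as Col5a1, Thy1 and Cdh11 were counted in every embryo. Smooth muscle genes summed to 31.9 and 28.1 CPM in WT against 21.1 and 26 in KO. Smtn (20.1 and 18.6 against 15.4 and 13.3) and, by a narrow gap, Cnn1 (7.37 and 5.08 against 2.5 and 5.06) were lower in both KO embryos, and Tagln overlapped (2.36 and 1.87 against 1.51 and 3.84), while the major actin of this tissue, Acta2, had 1 count in all.

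As lists, markers of uterine epithelium and of leukocytes were not higher in WT either. The 11 uterine epithelium genes summed to 9.14 and 11.9 CPM in WT against 19.5 and 24 in KO, mostly through Msx1, a homeobox gene, at 6.78 and 8.98 against 15.5 and 21.2. Lif, a cytokine needed for implantation, stood at 0.59 and 0 CPM against 1.27 and 0.897, Ihh, a hedgehog ligand, at 0.531 and 2.51 against 2.41 and 1.44, and the growth factor gene Areg had 3 counts in each KO embryo alone. Prss28, Prss29 and Sprr2f of that list were at 0 in every embryo. The 15 leukocyte genes summed to 4.78 and 6.57 CPM in WT against 12 and 21.2 in KO. Laptm5, a lysosomal membrane gene, gave the largest part in KO, with 5.29 and 16 CPM against 0.413 and 2.03 (log2 fold change 3.11, SE 0.89; edgeR adjusted p 0.437, DESeq2 adjusted p 0.021). Csf1r, the receptor of macrophages and trophoblast, was at 0 in both WT embryos but had 15 counts in KO 1 and 25 in KO 2, and Cd52 and H2-Eb1 had at most 2.03 and 1.98 CPM in any embryo. Lyz2, C1qa, Gzmc and Prf1 were at 0 throughout. Some genes of these 2 lists were counted in 1 WT embryo alone. They were Calb1 (11 counts), Tyrobp (4), Ltf (1) and H2-Aa (1) in WT 1, and Ptprc (14) and Wnt7a (3) in WT 2. Gzmb had 10 counts, all in KO 1. The 7 red cell genes summed to between 0.267 and 1.41 CPM. Alas2, of haem synthesis, had 4 to 23 counts, the alpha globin genes Hba-a1 and Hba-a2, which are near-identical copies, had at most 4 and 8, and the adult beta globin genes Hbb-bs and Hbb-bt were at 0 in all 4 embryos.

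The 10 endothelial genes summed to 41.5 and 55.2 CPM in WT against 78.4 and 68.8 in KO, with 3 genes above WT in both KO embryos and 1 below, beside 14.9% and 16.4% of all counted genes. DESeq2 called 2 of them higher, Cdh5 and Pecam1, and none lower, where it called 0.964% of genes higher and 0.578% lower. Cdh5 passed the filter on low counts through its KO counts alone and so had to differ. Cdh5, the cadherin of endothelial junctions, was at 0 in WT and had 786 and 235 counts in KO (37.1 and 8.43 CPM). By counting error alone its KO level was at least 248-fold higher. Without Cdh5 the list sums overlapped between the groups. Pecam1, an adhesion molecule, gave 9 and 19 counts in WT against 164 and 230 in KO (edgeR adjusted p 0.276, DESeq2 adjusted p 0.00259), and Vwf was also higher in both KO embryos. Cldn5, a tight junction gene, went the other way, with 18 and 19 counts in WT against 0 in each KO embryo. By counting error alone its KO level was at least 17-fold lower. Egfl7 (35.4 and 44.7 CPM against 24.9 and 37.9) and Eng (2.65 and 7.21 against 6.85 and 8.83) overlapped between the groups.

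The embryo's own lineages also differed in level beside the decidua markers. Visceral endoderm genes summed to 695 and 1846 CPM in WT 1 and WT 2 and to 253 and 329 in KO 1 and KO 2, and 7 of 8 had both KO embryos below both WT embryos, beside 16.4% of all counted genes. The sums thus had WT 2 above WT 1 above KO, an order also seen for Dcn, Hoxa10, Lum and Des. Pgr, Col1a2, Col3a1 and Col1a1 instead had WT 1 above WT 2. Apoa1, an apolipoprotein gene, stood at 441 and 1108 CPM in WT against 173 and 194 in KO, Ttr 68.7 and 173 against 13.7 and 25.7, and Amn 44.6 and 212 against 14.9 and 30.8. Differentiated trophoblast genes ran the other way, at 355 and 549 CPM in WT against 1778 and 1016 in KO, with all 5 counted genes above WT in both KO embryos, beside 14.9% of all counted genes. They included Hand1 (151 and 262 CPM against 519 and 469), Plac1 (6.78 and 2.14 against 287 and 75.9) and Phlda2 (198 and 284 against 624 and 415). Parietal endoderm genes summed to 307 and 940 CPM in WT against 436 and 511 in KO. Sparc (167 and 421 against 231 and 290), Col4a1 (27.4 and 82.6 against 38.8 and 51) and Srgn (56.9 and 318 against 58.9 and 53.2) overlapped. Thbd, thrombomodulin, was at 0 in WT and had 122 and 50 counts in KO, by counting error alone at least 41.7-fold higher. The part of these lineages in the levels of the decidua markers was not tested.

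**Figure D4:**
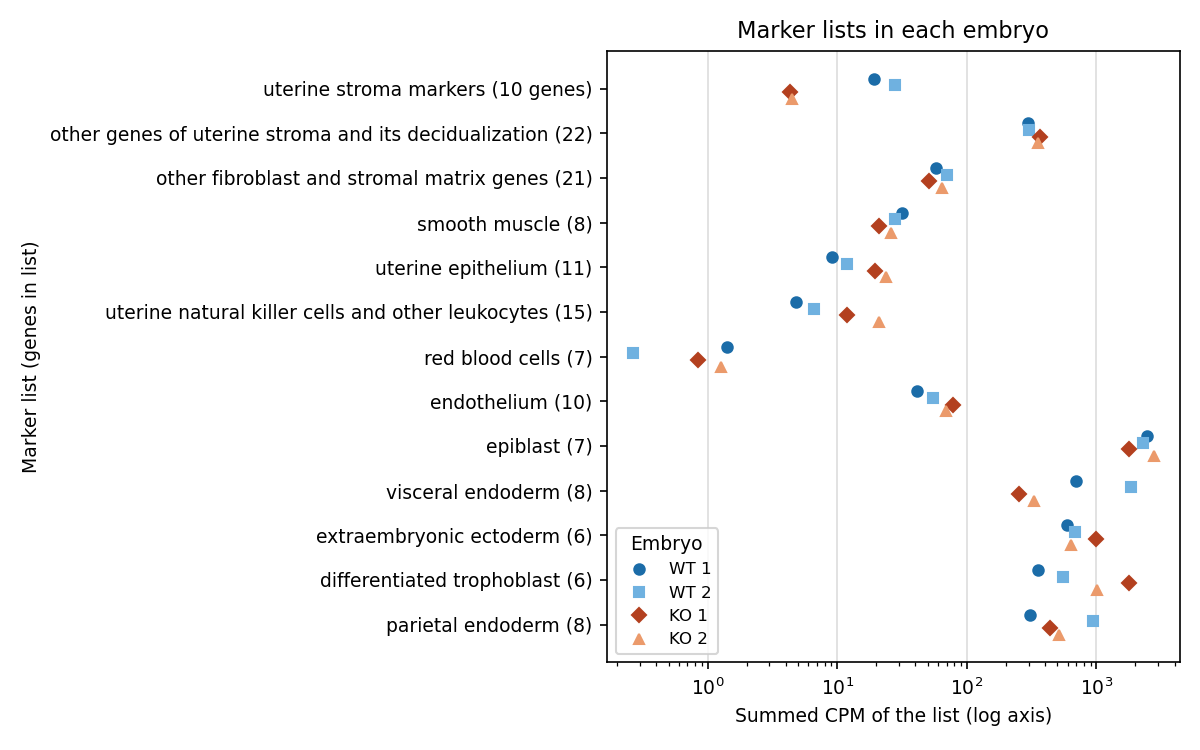
Points give the summed CPM of each marker list (rows, with the number of genes) in each embryo, on a logarithmic x axis. The 10 uterine stroma markers and the visceral endoderm and smooth muscle lists are lower in both KO embryos, while uterine epithelium, leukocyte, endothelium, decidualization and differentiated trophoblast lists are higher in both.

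The genes with the profile most like Hoxa10 and Dcn over the 4 embryos were looked for among 12859 named genes with at least 0.5 CPM on average. Likeness was the sum over embryos of the absolute difference in each gene's share of its own total CPM, which is 0 for the same profile. Nearest to Hoxa10 were Slc2a2, a glucose transporter gene (13, 64, 6 and 1 counts in WT 1, WT 2, KO 1 and KO 2; distance 0.18), Pde6c, a phosphodiesterase gene (distance 0.19), and Serpinc1, the antithrombin gene (distance 0.22). Among the genes nearest to Dcn were the histone gene Hist1h4k (with near-identical copies, so uncertain) and Slc23a3 (31, 58, 6 and 9 counts), both at a distance of 0.06. No gene came within 0.1 of Hoxa10, and 5 came within 0.1 of Dcn. With 4 embryos such likeness is a description only.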

How the data were processed

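The authors deposited raw read counts per gene (whole numbers, 1 column per embryo). The labels' protocols give polyadenylated RNA of single embryos amplified with a Smart-Seq v4 kit. The submitters' processing notes list TopHat, Cufflinks and mm10 with no role. How reads were counted, with which annotation and strand setting, was not given. This kit does not mark strand, so a gene and its antisense partner can share reads.

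Symbols, positions and exon lengths came from GENCODE M21 (mm10). KO was compared with WT by edgeR 4.0.16 (R 4.3.3; filterByExpr with minimum count 10 and minimum total 15, TMM, robust quasi-likelihood F test, Benjamini-Hochberg over 15563 genes, threshold 0.05). SE is the size of the log2 fold change over the root of F. DESeq2 1.42.0, limma-voom (limma 3.58.1), other scalings and filters, the replicate block and each embryo left out were the alternatives. The fits were tested on simulated data. With 2 embryos per group, p-values rest on these embryos alone, through their spread, counting noise and variance estimates shared across genes.

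The members and lists were chosen with earlier results of these data known. All 10 members and Mettl14 are named, and of each other list the 3 genes with the highest summed CPM and genes counted in both embryos of 1 group only; genes named beyond that were chosen after their values were seen. Of the genes nearest to Dcn in profile, 1 is not reported here.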

Additional observations from a re-analysis of the deposited data

How the results depend on the processing

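No member was called by edgeR as reported, by voom, under RLE or library-total scaling, with at least 50 counts in 2 libraries or with the replicate block. DESeq2 called 2 members lower (Hoxa10 and Dcn) and no low-count filter 3 (also Col1a2, adjusted p 0.047). Each fit without 1 embryo left a single embryo in 1 group, so only its effect sizes are given. The log2 fold changes ran from -9.80 to -7.28 for Hoxa10 and from -3.95 to -3.05 for Dcn. No member was called higher in any fit to all 4 embryos, and none of the 5 tested members changed sign in any fit. The log2 ratio of the summed level (KO over WT) was -2.43; it was -1.81 without Dcn and -3.15 without Des, an alternative chosen after seeing the data, and moved by less than the spread between embryos in the others.

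Over all genes edgeR called 0 higher and 0 lower, DESeq2 150 and 90, no low-count filter 157 and 101, and leaving out 1 embryo 14 to 133 higher and 1 to 209 lower; the cause was not tested. Nothing in the labels ties equal replicate numbers to a litter or day. The difference between the WT embryos correlated across genes at 0.329 with that between the KO embryos, and the replicate block gave 52 higher and 19 lower. Members with 10 counts or fewer in all (Hoxa11, Hand2, Col3a1 and Lum) are limited by depth.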

Other observations

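Ogn and Aspn, 2 more genes of the small leucine-rich proteoglycan family, were set apart by embryo and not by genotype; both were chosen after their values were seen. Ogn had 67 counts in WT 1 and 53 in KO 1, but 3 in WT 2 and 5 in KO 2. Aspn had 96 and 55 counts in WT 1 and KO 1, and 9 and 7 in WT 2 and KO 2. Dcn, of the same family, was highest in WT 2.

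Among sex-linked genes, the Y-linked Ddx3y, Eif2s3y and Kdm5d had 0 counts in all 4 embryos and Uty had at most 5. Xist, the RNA that coats the inactive X chromosome, was counted in every embryo, at 202 and 59.8 CPM in WT and 69.6 and 6.06 CPM in KO.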
